A study of Mus musculus with 6 samples.

Results

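The genes described here are 10 genes of the cytotoxic granule: the granzymes Gzma, Gzmb, Gzmc, Gzmk and Gzmm, the pore-forming protein gene Prf1, the granule matrix gene Srgn, the granule membrane gene Nkg7, and the protease inhibitor genes Serpinb9 and Serpinb6b. They were taken by symbol from the count files of 6 RNA sequencing libraries. All 10 were among the 23284 genes counted and among the 12951 with enough counts to be tested. The libraries came from lymph node CD8 T cells of C3H/HeJ mice, sorted as CD3+CD8+CD44+CXCR3+ cells and divided by surface NKG2D, an activating receptor, into 3 NKG2D+ and 3 NKG2D- libraries. The submitters state that 3 mice were used. They do not say which libraries share a mouse. Libraries with the same number were taken to come from 1 mouse because their deviations from the group means were correlated. A mouse number below stands for that replicate number, which the sequencing lane tags also follow. No allele, agent, age or disease state of the mice is named in the sources used here.

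Cytotoxic T cells kill by releasing granules at the point of contact with a target cell. Perforin opens a path through the membrane and granzymes, which are serine proteases, then cleave proteins inside the target. Serglycin holds granzymes and perforin in the granule, and serpins in the cytosol of the killer cell bind granzymes that leak out.

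The libraries held 41168816 to 89184611 gene counts, so 1 count was worth 0.0112 to 0.0252 CPM, a count scaled to library size by the TMM method. Klrk1, the gene of NKG2D itself, averaged 354 ± 49.7 CPM where the label says NKG2D+ and 35.9 ± 1.35 CPM where it says NKG2D- (SD, n = 3 each). An exact permutation test, two-sided, could not go below p = 0.1 with 3 libraries against 3 and gave that value. Of 11 genes of T-cell identity, among them Cd3e, Cd8a, Cd8b1, Cd44 and Cxcr3, 0 passed the test in either direction, with 2 at an unadjusted p under 0.05, where 21.1% of all tested genes stood. DESeq2 called 1 of the 11, the sort marker Cd44, and limma-voom 0. Cd44 stood at 430, 177 and 224 CPM in NKG2D+ libraries 1, 2 and 3 and at 133 to 137 CPM in NKG2D- libraries. Its log2 fold change was 1.03 (edgeR adjusted p = 0.13, DESeq2 adjusted p = 0.0051). The other gene at an unadjusted p under 0.05, Cd3d, was lower, at 327 to 333 against 354 to 397 CPM.

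All 5 granzymes had counts in every library of both populations, and 2 of them differed in level by the test. NKG2D+ cells had 51.7 times as much Gzma RNA and 19.7 times as much Gzmb RNA as NKG2D- cells, and both genes rose by edgeR's quasi-likelihood test. Gzmk and Gzmc had fitted ratios of 16.6 and 4.32 but did not pass it. Prf1, Srgn, Nkg7, Gzmm, Serpinb9 and Serpinb6b were transcribed in both populations, with fitted ratios between 0.945 for Serpinb9 and 1.32 for Nkg7. In bulk libraries, fewer cells with a transcript and less of it per cell cannot be told apart.

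By edgeR at an adjusted p under 0.05, 2 of the 10 genes were higher in NKG2D+ cells and 0 lower, where 1.65% of all tested genes were higher and 0.363% lower. A fitted log2 fold change of at least 2 was seen in 4 of the 10, against 2.04% of all tested genes. A change of less than 0.5 in size was seen in the other 6, against 82.5%. In 5 of the 10 every NKG2D+ library lay above every NKG2D- library, against 15.1% of all tested genes, and in 0 of the 10 below, against 14.1%. With the replicate number as a block edgeR called 2 of the 10 higher (0.44% of all tested genes), DESeq2 called 5 (7.5%) and limma-voom 0 (0.463%). These counts describe 10 genes that were picked with earlier results of the same libraries known.

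**Figure D1:**
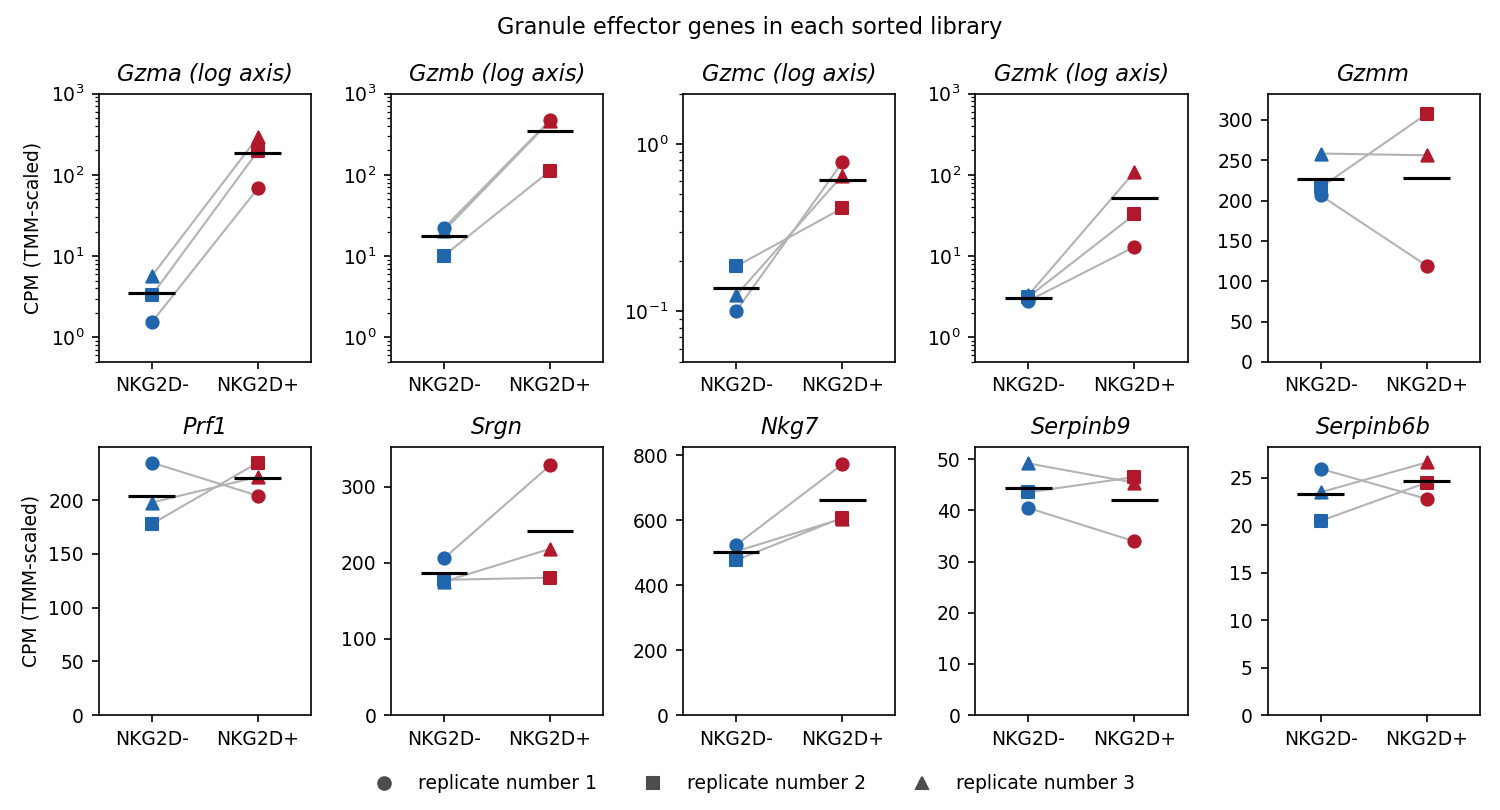
CPM of each gene in each library, with NKG2D- at the left (blue) and NKG2D+ at the right (red), the symbol giving the replicate number, grey lines joining same-numbered libraries and black bars giving the mean of 3 libraries; the first 4 panels have log axes. Gzma, Gzmb, Gzmc, Gzmk, Nkg7 and Srgn are higher at the NKG2D+ end of every line, though Srgn is nearly level in pair 2. The lines of Gzmm, Prf1, Serpinb9 and Serpinb6b cross and overlap.

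Gzma encodes granzyme A, a protease that cuts after basic residues. It stood at 68.0, 196 and 292 CPM in NKG2D+ libraries 1, 2 and 3 and at 1.54, 3.28 and 5.66 CPM in NKG2D- libraries 1, 2 and 3. The lowest NKG2D+ library was far above the highest NKG2D- library. From library to library the level varied about as much within each population, over a 4.29-fold range in NKG2D+ and a 3.68-fold range in NKG2D-. The mean was 185 ± 112 against 3.49 ± 2.07 CPM (log2 fold change 5.69, SE 0.70, edgeR adjusted p = 0.022, higher in 3 of 3 pairs). The call was lost when NKG2D+ library 3 or any 1 of the NKG2D- libraries was left out, with log2 fold changes of 5.21 to 6.23 and adjusted p-values of 0.0771 to 0.118. It was also lost by limma-voom (adjusted p = 0.0722) and without the filter on low counts (adjusted p = 0.068).

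The ratio of Gzma between the populations was alike in the 3 mice. It was 44.2 in mouse 1, 59.6 in mouse 2 and 51.5 in mouse 3, although the level itself differed 4.29-fold between NKG2D+ libraries. The mice stood in the same order in both populations, with mouse 1 lowest and mouse 3 highest. With the replicate number as a block the SE of the log2 fold change was 0.10 in place of 0.70. Gzma in NKG2D- libraries was lower relative to NKG2D+ than Klrk1, whose ratios in the pairs were 11.9, 8.40 and 9.47.

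Gzmb encodes granzyme B, which cuts after aspartate and activates caspases in the target cell. Its level was 469, 112 and 458 CPM in NKG2D+ libraries 1, 2 and 3, against 22.2, 10.1 and 20.4 CPM in NKG2D- libraries 1, 2 and 3. Mouse 2 was the low one in both populations, and the populations did not overlap. The mean was 346 ± 203 against 17.6 ± 6.53 CPM (log2 fold change 4.30, SE 0.62, edgeR adjusted p = 0.0311, higher in 3 of 3 pairs), and the ratios in the pairs were 21.1, 11.05 and 22.4. Leaving out NKG2D+ library 1 or 3 or any 1 of the NKG2D- libraries ended the call, with log2 fold changes of 4.02 to 4.50 and adjusted p-values of 0.108 to 0.180. Limma-voom gave an adjusted p of 0.060 and the fit without the filter on low counts 0.0852.

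Gzmk encodes granzyme K, which like granzyme A cuts after basic residues. Its NKG2D+ libraries 1, 2 and 3 held 13.0, 32.5 and 109 CPM, and its NKG2D- libraries 1, 2 and 3 held 2.82, 3.14 and 3.31 CPM. The NKG2D- libraries were nearly level, over a 1.17-fold range, while the NKG2D+ libraries spanned 8.36-fold, so that the ratio in the pairs ran from 4.60 in mouse 1 to 10.3 in mouse 2 and 32.8 in mouse 3. The fitted log2 fold change was 4.05 (SE 0.78, edgeR adjusted p = 0.0554). It passed without NKG2D+ library 1 (4.51, adjusted p = 0.0395) and by DESeq2, and stood at 2.88 without NKG2D+ library 3 (adjusted p = 0.0771).

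Gzmc encodes granzyme C, a close relative of granzyme B, and was near the limit of detection. It had 51, 37 and 50 counts in NKG2D+ libraries and 4, 11 and 8 counts in NKG2D- libraries, or 0.413 to 0.776 against 0.101 to 0.186 CPM. All NKG2D+ values lay above all NKG2D- values (log2 fold change 2.11, SE 0.40, edgeR adjusted p = 0.0516). Without NKG2D+ library 2 it was called (2.33, adjusted p = 0.0169), and DESeq2 called it as well. Of the 50-base words in its longest transcript, 4.14% also occur in transcripts of other genes, chiefly Gzme and Gzmg, so some of its reads could have been set aside or shared. That share was 3.125% for Serpinb6b, chiefly with Serpinb6c, 0.380% for Serpinb9, and 0% for Gzma, Gzmb, Gzmk, Gzmm, Prf1, Srgn and Nkg7.

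Gzmm encodes granzyme M, which cuts after methionine and leucine. It was the granzyme with most reads in NKG2D- libraries, at 206, 216 and 258 CPM, and stood at 119, 307 and 256 CPM in NKG2D+ libraries 1, 2 and 3. Mouse 1 was lower in NKG2D+ than in NKG2D- cells, mouse 2 higher and mouse 3 level, with ratios of 0.578, 1.42 and 0.992. The fitted log2 fold change was 0.00 with a 95% interval of -0.75 to 0.76, or 0.593-fold to 1.70-fold. Its sign changed between settings.

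The other granzymes of the mouse were absent or nearly so. Gzme, Gzmg and Gzmn had 0 counts in every library, which allows up to 0.0335 to 0.0756 CPM per library for 3 counts, a limit that covers counting error only. Gzmd had 3 counts and Gzmf 4 counts in all, each of them in NKG2D+ libraries. None of these 5 genes had enough counts to be tested.

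**Figure D2:**
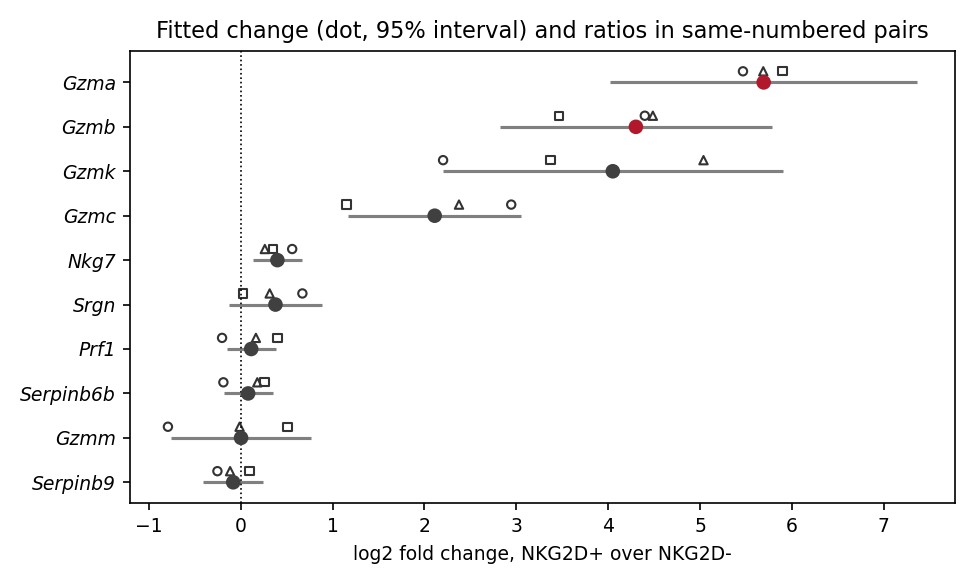
Fitted log2 fold change of each gene, NKG2D+ over NKG2D-, with its 95% interval (filled dot and bar, red where the edgeR adjusted p is under 0.05), and above it the log2 ratio in each same-numbered pair (circle 1, square 2, triangle 3). The 3 ratios of Gzma lie close together between 5.47 and 5.90, those of Gzmk spread from 2.20 to 5.04, and those of Gzmm, Prf1, Serpinb9 and Serpinb6b fall on both sides of 0.

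The make-up of the granzyme reads in a library is a measure that does not depend on scaling between libraries. Gzmm made up 88.6%, 92.8% and 89.7% of the summed counts of the 5 granzymes in NKG2D- libraries 1, 2 and 3, and 17.8%, 47.5% and 23.0% in NKG2D+ libraries 1, 2 and 3. In NKG2D- libraries Gzmb gave 4.35% to 9.53% and Gzma 0.659% to 1.97%. The shares are of reads and are not corrected for transcript length, so they compare libraries and not genes.

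The NKG2D+ libraries differed from each other in these shares. In mouse 1 Gzmb made up 70.0% and Gzma 10.2% of granzyme counts. In mouse 2 Gzmb made up 17.3%, Gzma 30.2% and Gzmm 47.5%. Mouse 3 lay between them for Gzmb, at 41.1%, with 26.2% Gzma and 9.74% Gzmk, the most Gzmk of the 6 libraries. The ratio of Gzmb to Gzma counts was thus 6.89 in mouse 1, 0.572 in mouse 2 and 1.57 in mouse 3, and in NKG2D- libraries 14.5, 3.09 and 3.61, with mouse 1 highest and mouse 2 lowest in both populations.

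**Figure D3:**
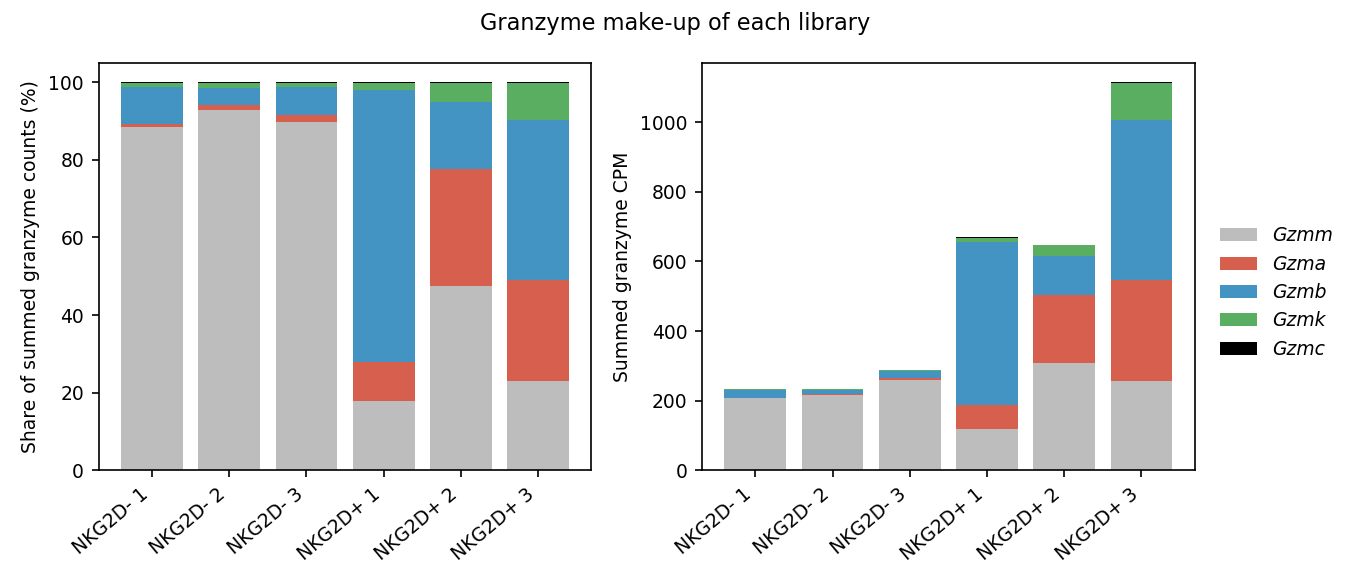
Make-up of the granzyme reads in each library, as percent of the summed counts of 5 granzymes (left) and as stacked CPM (right). Gzmm (grey) makes up 88.6% to 92.8% in NKG2D- libraries and 17.8% to 47.5% in NKG2D+ libraries, where Gzmb (blue) makes up 70.0%, 17.3% and 41.1% in libraries 1, 2 and 3.

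The levels of Gzma, Gzmb and Gzmm varied between libraries more than those of most genes in both populations, and the level of Gzmk did so in NKG2D+ libraries. In NKG2D+ libraries the SD of log2(CPM + 0.5) was 1.08 for Gzma, 1.18 for Gzmb, 1.51 for Gzmk and 0.72 for Gzmm, where the median over all tested genes was 0.15, and 99.1%, 99.3%, 99.8% and 96.7% of tested genes had a smaller SD. In NKG2D- libraries the SD was 0.80 for Gzma and 0.60 for Gzmb, larger than in 99.5% and 98.9% of tested genes. There it was 0.10 for Gzmk and 0.17 for Gzmm, larger than in 47.2% and 73.8%, where the median was 0.11. The low counts of Gzmc gave an SD of 0.25 in NKG2D+ and 0.10 in NKG2D- libraries, larger than in 72.6% and 46.1% of tested genes. Prf1 varied little in NKG2D+ libraries, with an SD of 0.10, but in NKG2D- libraries its SD of 0.20 was larger than in 80.5% of tested genes. Srgn had an SD of 0.44 in NKG2D+ and 0.13 in NKG2D- libraries, larger than in 89.4% and 59.9%. For Gzma, Gzmb and Gzmk the order of the 3 mice was the same in both populations, and for the other 7 genes it was not. The share of all tested genes with a shared order was not computed, and the NKG2D- libraries of Gzmk spanned only 1.17-fold.

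Because Gzma, Gzmb and Gzmk had the 3 largest fitted differences, of which that of Gzmk did not pass the test, and Prf1 overlapped between the populations, the sequences before their transcription starts are shown for a reader who wants to compare them. They are the 250 bases before the start on the gene's strand, from RefSeq on build GRCm38.p6, whereas the libraries were aligned to mm9 and come from another mouse strain. Capitals mark matches, on either strand, to TGANTCA (AP-1 family), TGTGGT (RUNX family), TCACAC (T-box family) and TTCNNNGAA (STAT family). No matches overlap in these windows.
Gzma, chr13:113100982-113101231, minus strand: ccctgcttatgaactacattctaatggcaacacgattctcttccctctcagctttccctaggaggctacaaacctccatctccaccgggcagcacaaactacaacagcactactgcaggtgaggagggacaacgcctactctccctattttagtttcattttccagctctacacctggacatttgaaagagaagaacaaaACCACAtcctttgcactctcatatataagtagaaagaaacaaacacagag
Gzmb, chr14:56262335-56262584, minus strand: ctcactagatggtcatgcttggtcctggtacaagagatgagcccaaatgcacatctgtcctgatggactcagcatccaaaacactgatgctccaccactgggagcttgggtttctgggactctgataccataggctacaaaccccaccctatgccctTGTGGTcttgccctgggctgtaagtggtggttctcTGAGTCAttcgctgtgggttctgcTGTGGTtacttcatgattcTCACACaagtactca
Gzmk, chr13:113180966-113181215, minus strand: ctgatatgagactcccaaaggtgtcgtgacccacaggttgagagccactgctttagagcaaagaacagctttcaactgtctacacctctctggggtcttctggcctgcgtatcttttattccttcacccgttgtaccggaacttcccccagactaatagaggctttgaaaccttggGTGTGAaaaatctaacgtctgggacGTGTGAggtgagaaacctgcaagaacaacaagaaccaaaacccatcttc
Prf1, chr10:61297586-61297835, plus strand: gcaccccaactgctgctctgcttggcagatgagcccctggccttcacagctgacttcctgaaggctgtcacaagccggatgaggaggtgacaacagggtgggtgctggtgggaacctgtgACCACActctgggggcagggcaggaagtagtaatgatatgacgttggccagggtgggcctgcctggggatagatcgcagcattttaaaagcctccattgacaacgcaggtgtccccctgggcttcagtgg

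Gzmb had matches to 3 of the 4 motifs, with the AP-1 match 58 to 52 bases, a RUNX match 34 to 29 bases and the T-box match 15 to 10 bases before the start. Gzma had a single RUNX match 50 to 45 bases before the start, and Gzmk, which did not pass the test, had T-box matches 74 to 69 and 49 to 44 bases before it. Prf1, which did not pass it either, had a RUNX match 130 to 125 bases before the start. Over the 12 listed starts of the 10 genes, 7 windows held the RUNX motif, 4 the T-box motif, 2 the STAT motif and 1 the AP-1 motif. Among 32851 promoter windows of the same length in the table the shares were 14.0%, 12.3%, 7.02% and 6.75%. A match describes letters in a window and not a bound site.

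Prf1 encodes perforin. It stood at 204, 235 and 222 CPM in NKG2D+ libraries 1, 2 and 3 and at 235, 178 and 198 CPM in NKG2D- libraries 1, 2 and 3. The populations overlapped, and mouse 1 went down where mice 2 and 3 went up. The log2 fold change was 0.11 with a 95% interval of -0.15 to 0.38 (edgeR adjusted p = 0.62), so the upper bound is a 1.30-fold increase. Gzmb counts per Prf1 count came to 2.296, 0.477 and 2.07 in the 3 NKG2D+ libraries, above the 0.057 to 0.103 of the NKG2D- libraries.

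Srgn encodes serglycin, the proteoglycan core on which granzymes are packed. Its levels in NKG2D+ libraries were 328, 180 and 218 CPM and in NKG2D- libraries 206, 178 and 175 CPM. Only NKG2D+ library 1 stood well above the rest, and NKG2D+ library 2 lay within the NKG2D- range. The ratios in the pairs were 1.59, 1.02 and 1.24. The log2 fold change was 0.38 (95% interval -0.13 to 0.88, edgeR adjusted p = 0.366), and without NKG2D+ library 1 it was 0.10. Gzma counts per Srgn count ran from 0.207 to 1.34 in NKG2D+ libraries, against 0.00747 to 0.0323.

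Nkg7 encodes a granule membrane protein that takes part in granule release. It stood at 772, 608 and 605 CPM in NKG2D+ libraries and 524, 477 and 504 CPM in NKG2D- libraries. Every NKG2D+ library was above every NKG2D- library, with ratios of 1.47, 1.27 and 1.20 in the pairs. The log2 fold change was 0.40 (SE 0.11, edgeR adjusted p = 0.113), so it did not pass over all genes tested, while DESeq2 called it (adjusted p = 0.0233).

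Serpinb9 encodes the intracellular inhibitor of granzyme B. It stood at 33.96, 46.5 and 45.4 CPM in NKG2D+ libraries 1, 2 and 3 and at 40.5, 43.5 and 49.2 CPM in NKG2D- libraries 1, 2 and 3. The ranges overlapped, with a log2 fold change of -0.08 and a 95% interval of -0.41 to 0.24 (edgeR adjusted p = 0.787). Gzmb counts per Serpinb9 count were 13.8, 2.40 and 10.1 in NKG2D+ libraries 1, 2 and 3, and only 0.549, 0.233 and 0.415 without NKG2D. The same ratio for Prf1 was 6.01, 5.05 and 4.88 against 5.80, 4.08 and 4.02. These are ratios of reads within a library, not corrected for length.

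Serpinb6b encodes another serpin of the same clade that is expressed in lymphocytes. Its levels were 22.8, 24.5 and 26.6 CPM in NKG2D+ and 25.9, 20.5 and 23.5 CPM in NKG2D- libraries 1, 2 and 3. The populations overlapped (log2 fold change 0.08, 95% interval -0.19 to 0.35, edgeR adjusted p = 0.733). Of the 10 genes, the pair with the most alike pattern was Prf1 and Serpinb6b, with a root mean square difference of 0.0685 between their centred log2 levels over 6 libraries. This measure is small for any genes that change little, and the order of the NKG2D+ libraries differed between Prf1 and Serpinb6b.

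Per length, the order of the genes differed between the populations. In NKG2D- libraries Nkg7 led with 1007 ± 46.9 CPM per kb of coding sequence, then Srgn with 406 ± 37.0, Gzmm with 285 ± 34.7 and Prf1 with 122 ± 17.4 (SD, n = 3). Serpinb9 followed with 39.5 ± 3.93, Gzmb with 23.6 ± 8.77, Serpinb6b with 20.5 ± 2.42, Gzma with 4.46 ± 2.64 and Gzmk with 3.902 ± 0.312 CPM per kb. The neighbours Gzmb and Serpinb6b, and Gzma and Gzmk, did not differ beyond their spread. Per kb of the longest transcript Gzmm (176) came before Srgn (108).

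In NKG2D+ libraries Nkg7 led again with 1329 ± 192 CPM per kb of coding sequence, followed by Srgn with 527 ± 167, Gzmb with 465 ± 273, Gzmm with 286 ± 122 and Gzma with 236 ± 143. Below them stood Prf1 with 132 ± 9.26, Gzmk with 64.9 ± 63.8, Serpinb9 with 37.3 ± 6.18 and Serpinb6b with 21.7 ± 1.70 CPM per kb. The place of Prf1 did not hold in every library. Gzma was below it in library 1, at 86.8 against 123, and Gzmk above it in library 3, at 137 against 133. The spreads of Srgn, Gzmb, Gzmm and Gzma overlapped, and per kb of the longest transcript Gzmb and Gzma came before Gzmm and Srgn. The place of Gzmk rested on library 3, at 137 CPM per kb, since in libraries 1 and 2 it stood at 16.4 and 41.07 against 30.2 and 41.36 for Serpinb9. Gzmc was last in both populations.

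Among genes that averaged 5 CPM or more in their higher population, those with the pattern nearest to Gzmb over the 6 libraries were 4933431E20Rik, Havcr2, which encodes the inhibitory receptor TIM-3, and Cmklr1, which encodes the chemerin receptor. Their root mean square differences from Gzmb in centred log2 level were 0.147, 0.178 and 0.275. Havcr2 stood at 43.5, 9.64 and 37.0 CPM in NKG2D+ and at 1.81, 0.795 and 1.62 CPM in NKG2D- libraries, with mouse 2 the low one in both as for Gzmb. Nearest to Gzma were Ifitm1, Esm1 and Tjp1, at 0.701, 1.09 and 1.15. Nearest to Prf1 were the likewise flat genes 5730507C01Rik, Pkmyt1 and 9130019O22Rik. These are likenesses over 6 libraries that share mice and groups, picked from 9626 genes.

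Of 11 tested genes listed for granzyme processing and granule membrane, 0 passed in either direction. The list is broad and also holds Calr, Cst7, M6pr and Igf2r. Over all tested genes 1.65% were higher and 0.363% lower by edgeR. At an unadjusted p under 0.05 stood 4 of the 11 (21.1% of all tested genes). The median log2 fold change of the 11 was -0.01, as over all tested genes. DESeq2 called 2 of them higher and 0 lower (7.5% and 3.03% of all genes it tested), and limma-voom 0. Ctsc, which encodes the protease that activates progranzymes, stood at 65.1 to 95.4 CPM in NKG2D+ and 67.6 to 92.8 CPM in NKG2D- libraries. The members with the smallest p were Ctsd, Ctsw, Ctsl and Cd63, with log2 fold changes of 0.67, 0.27, -0.62 and 0.89 and edgeR adjusted p-values of 0.0987, 0.1, 0.194 and 0.231.

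Of 11 tested genes of granule exocytosis, 0 rose and 1 fell by edgeR, where 1.65% of all tested genes rose and 0.363% fell. The median log2 fold change of the 11 was 0.16. At an unadjusted p under 0.05 there were 5 (21.1% of all tested genes), while DESeq2 called 4 higher (7.5%) and 1 lower (3.03%) and limma-voom called 0. The gene that fell was Lyst, a large regulator of lysosome size that is mutated in Chediak-Higashi syndrome. It stood at 218, 224 and 236 CPM in NKG2D+ and at 319, 287 and 316 CPM in NKG2D- libraries (log2 fold change -0.44, SE 0.07, edgeR adjusted p = 0.0358, lower in 3 of 3 pairs). With the replicate block its adjusted p was 0.0714, by limma-voom 0.0596, and 0.112 to 0.208 without NKG2D+ library 3 or any 1 of the NKG2D- libraries.

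Stx11, a syntaxin needed for granule fusion, stood at 9.66 to 17.5 CPM in NKG2D+ against 3.904 to 6.09 CPM in NKG2D- libraries (log2 fold change 1.39, edgeR adjusted p = 0.0513). Sytl2 and Rab27a, a tether and the small GTPase it binds, had log2 fold changes of 0.63 and 0.45 (edgeR adjusted p = 0.0538 and 0.111). Unc13d, which primes granules for fusion, was level at 218 to 277 against 247 to 253 CPM. Vamp7 was listed at 0 in every library.

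Of 12 related serpin genes 4 had enough counts to be tested and 0 passed, with a median log2 fold change of 1.30. Over all tested genes 1.65% were higher and 0.363% lower by edgeR. Serpina3g, a serpin induced in activated T cells, stood at 108 to 173 CPM in NKG2D+ and 44.0 to 75.1 CPM in NKG2D- libraries (log2 fold change 1.19, edgeR adjusted p = 0.0609). Serpinb6a stood at 64.4, 25.9 and 42.1 CPM in NKG2D+ against 14.0 to 19.2 CPM in NKG2D- libraries (1.41, adjusted p = 0.0796), and Serpina3f and Serpinb1a had log2 fold changes of 1.69 and 0.96 (adjusted p = 0.115 and 0.301). DESeq2 called 3 of these 4 higher and limma-voom 0, and 3 had an unadjusted p under 0.05, against 7.5%, 0.463% and 21.1% of all tested genes.

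Of 4 ligands that act beside granules, 1 rose and 0 fell by edgeR, where 1.65% of all tested genes rose and 0.363% fell. DESeq2 called 3 of the 4 higher (7.5% of all genes it tested), limma-voom called 1 (0.463%), and 3 had an unadjusted p under 0.05 (21.1%). Fasl, which encodes the Fas ligand, stood at 41.7, 45.1 and 50.6 CPM in NKG2D+ and at 12.5, 16.7 and 18.4 CPM in NKG2D- libraries, above them in every case (log2 fold change 1.53, SE 0.15, edgeR adjusted p = 0.0151). The call was lost without NKG2D+ library 3 or NKG2D- library 2 or 3 (adjusted p = 0.0766, 0.0775 and 0.0599). Tnfsf10, Lta and Tnf had log2 fold changes of 1.32, 1.10 and 0.94 (edgeR adjusted p = 0.0682, 0.13 and 0.238). Without NKG2D+ library 1 that of Tnf was 0.35.

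**Figure D4:**
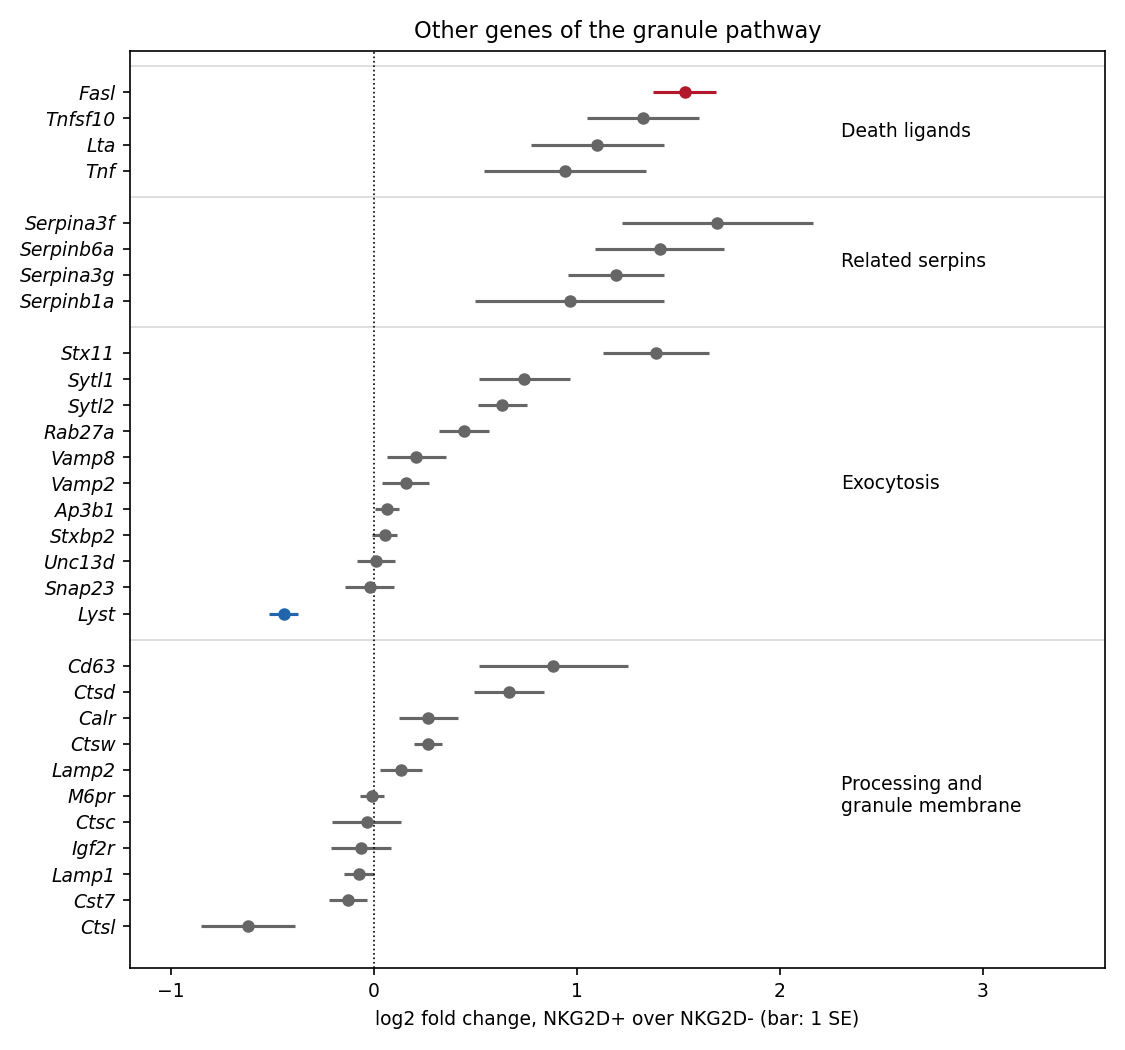
Fitted log2 fold change, NKG2D+ over NKG2D-, with a bar of 1 SE, for the tested genes listed for granzyme processing and granule membrane, granule exocytosis, related serpins and death ligands. Fasl (red) was higher and Lyst (blue) lower at an edgeR adjusted p under 0.05, and the other genes (grey) did not pass.

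Markers of other cells that can hold granule proteins were measured in the same libraries. The summed level of 7 NK-cell markers was 6.62 to 9.72 CPM in NKG2D+ and 3.53 to 5.44 CPM in NKG2D- libraries. Ncr1, Klra8 and Klra9 among them were under 1 CPM in every library, and Klra4 had 0 counts. The reads came from C3H/HeJ mice and were aligned to mm9, and whether the strain affects counts of the Klra genes was not tested. For 8 mast cell and basophil markers the sum was 0.228 to 1.83 against 0.403 to 0.659 CPM, with Fcer1a and Ms4a2 at 0 counts in every library. For 6 markers of plasmacytoid dendritic cells it was 67.2 to 89.7 against 70.0 to 77.3 CPM, most of it from Bst2.

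The sums of the NK-cell, B-cell, myeloid and gamma-delta T-cell markers did not overlap between the populations and were higher with NKG2D, though 0 genes of these lists passed the edgeR test at an adjusted p under 0.05 or limma-voom. At an unadjusted p under 0.05 stood 8 of 9 tested B-cell, 6 of 9 myeloid, 3 of 4 gamma-delta and 3 of 5 NK-cell markers, and DESeq2 called 3, 3, 2 and 1 of them higher. Over all tested genes these shares were 21.1% and 7.5%. The 9 B-cell markers summed to 422, 172 and 204 CPM with NKG2D, against 49.1, 152 and 112 CPM without it. The 10 myeloid markers summed to 94.5 to 140 against 74.3 to 81.4 CPM. Most of that sum came from Cst3, at 76.7 to 107 against 63.8 to 69.4 CPM. Itgam, Cd14, Emr1 and Clec9a were under 1 CPM in every library, and Clec9a was lower in each NKG2D+ library. The 5 gamma-delta markers summed to 141 to 273 against 50.5 to 58.8 CPM, most of it from Cd163l1 and 5830411N06Rik, with Sox13 and Il23r under 1 CPM in every library. The 5 CD4 and regulatory T-cell markers summed to 46.9 to 127 against 50.3 to 58.8 CPM, but went in both directions. By edgeR 0 of them passed, 3 had an unadjusted p under 0.05, and DESeq2 called 2 higher and 1 lower. Foxp3 was lower in every NKG2D+ library, at 2.45 to 7.27 against 14.4 to 20.8 CPM. Zbtb7b stood higher, at 33.0 to 53.0 against 18.7 to 27.4 CPM, as did Cd40lg, at 3.57 to 47.7 against 1.36 to 2.09 CPM. The 4 plasma cell markers summed to 1.49 to 4.08 against 1.21 to 3.63 CPM. NKG2D+ library 1 had the highest B-cell, myeloid, gamma-delta, CD4 and plasmacytoid dendritic cell sums of its population. Its sum of the T-cell identity genes was also the highest, while its NK-cell and mast cell sums were the lowest. The same library had the lowest Gzma, Gzmk, Gzmm, Prf1, Serpinb9 and Serpinb6b of its population and the highest Gzmb, Gzmc, Srgn and Nkg7. The part of other cells in these levels was not tested.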

How the data were processed

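Total RNA was sequenced from TruSeq libraries. Each deposited file gives whole read counts by gene symbol, which the authors did not normalise. CASAVA 1.8.2, TopHat2 2.0.4 and mm9 are named in the submitters' processing notes, while no source used here names the counting program, the annotation or the strand setting. The 5 summary counts that name no gene were left out: reads outside genes made up 14.0% to 15.9% of a file, ambiguous reads 0.715% to 0.836% and reads aligned to several places 19.7% to 26.2%. Reads of near-identical genes may have been lost in this way.

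Counts were tested in R 4.3.3 with edgeR 4.0.16 (quasi-likelihood F-test, TMM, robust fits in legacy mode, group as the only term) on genes kept by filterByExpr (minimum count 10, minimum total 15). Benjamini-Hochberg adjustment ran over the 12951 genes tested, with a threshold of 0.05. The test was checked on simulated data. A 95% interval is the log2 fold change plus or minus its SE times the t quantile at the gene's total degrees of freedom. Ratios called fitted are powers of the log2 fold change. Alternatives were DESeq2 1.42.0, limma-voom (limma 3.58.1), DESeq2 size factors, no filter, the replicate number as a block, and libraries left out. Deviations from group means correlated in same-numbered libraries with r = 0.25, 0.20 and 0.38 across genes, which are not independent replicates, and the pairing rests on this and on the numbers in the sample titles. Sequencing lane tags follow the same numbers, and a lane's part in a pair cannot be told apart from the mouse's. Between replicates the chi-square per degree of freedom was 40.7 to 235, far above sampling noise.

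The genes and lists were chosen with earlier results of these data known. Named genes are all 10 members, up to 4 genes by smallest p in each granule list, and the 3 genes nearest in pattern to Gzma, Gzmb and Prf1. Ctsc, Unc13d and Vamp7 were named after their values were seen. Of the marker genes listed, Tcrg-C1, Trdc, Scart1, Adgre1, Jchain and Mzb1 did not match a symbol in the files. Coding and transcript lengths are from GENCODE vM21 (GRCm38). All 10 genes matched a RefSeq promoter.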

Additional observations from a re-analysis of the deposited data

How the results depend on the processing

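With 3 libraries a group, calls moved with single libraries, while the direction of Gzma, Gzmb, Gzmc, Gzmk, Srgn and Nkg7 held under all 14 alternatives. Of the 10 granule genes, 2 were called as higher with DESeq2 size factors and with the replicate block, 5 by DESeq2 (Gzma, Gzmb, Gzmc, Gzmk and Nkg7), and 0 by limma-voom or without the filter on low counts. Leaving out 1 library gave 0 to 3, and leaving out both libraries of mouse 1, 2 or 3 gave 1, 1 and 0. None was called lower. The replicate block changed no call among the 10, with adjusted p-values of 0.00159 for Gzma and 0.0209 for Gzmb.

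Among all genes, 214 were higher and 47 lower. DESeq2 called 1028 and 415, limma-voom 60 and 23, and the replicate block 57 and 11. Leaving out 1 library gave 4 to 904 higher and 4 to 408 lower, with 11 and 4 without NKG2D+ library 3, and 4 to 15 and 4 to 6 without any 1 of the NKG2D- libraries. Without both libraries of mouse 3 edgeR called 0 higher and 0 lower, with 971 at an unadjusted p under 0.05, and Klrk1 stood at 3.33 (adjusted p = 0.105). The other granule pathway genes tested were 11 of processing and granule membrane, 11 of exocytosis, 4 serpins and 4 ligands. Of these, 1 was called higher and 1 lower, where 1.65% of all tested genes were higher and 0.363% lower. The higher count was 3 without the filter and 12 by DESeq2, which called 7.5% of all genes it tested higher. It was 0 to 10 with 1 library left out, and 3, 7 and 0 without mouse 1, 2 or 3. The lower count was 0 by limma-voom, with the replicate block and without both libraries of any 1 mouse, and 0 to 1 with 1 library left out.

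Gzmm changed sign by limma-voom (-0.11), with the replicate block (-0.10), without both libraries of mouse 2 (-0.30) and with single libraries left out (-0.27 to 0.31). The log2 fold change of Prf1 was -0.014 and that of 5730507C01Rik -0.066 with both libraries numbered 2 left out. With 1 library left out Serpinb9 ranged from -0.161 to 0.051, Serpinb6b from -0.0075 to 0.162 and 5730507C01Rik from -0.019 to 0.197. The cause of these shifts was not tested. Scaling moved the median of all genes by under 0.1 on the log2 scale.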

Other observations

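Gzma and Gzmk are next to each other in the RefSeq gene order (GRCm38.p6), and the next gene beyond Gzmk is Esm1, which encodes the secreted proteoglycan endocan and is best known from endothelial cells. Esm1 was also the gene second nearest to Gzma in pattern. It stood at 10.2, 9.998 and 72.6 CPM in NKG2D+ libraries 1, 2 and 3 and at 0.605, 0.727 and 1.90 CPM in NKG2D- libraries 1, 2 and 3. Every NKG2D+ library was above every NKG2D- library, and mouse 3 was the highest in both populations, as for Gzma and Gzmk. The log2 fold change was 4.80 (edgeR adjusted p = 0.0691), and the replicate block gave 4.48 (adjusted p = 0.0364). Without NKG2D+ library 3 it was 3.21 (adjusted p = 0.105), by limma-voom the adjusted p was 0.222, and without any 1 of the NKG2D- libraries it was 0.203 to 0.254. On the other side of Gzma, Gpx8 was near the limit of detection, at 0.152 to 0.207 CPM in NKG2D+ and at most 0.031 CPM in NKG2D- libraries (log2 fold change 3.73, adjusted p = 0.0672). These neighbours were looked up after the values of Esm1 were seen, and reads that run on from one gene into the next were not tested.

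Neither Esm1 nor Gpx8 passed the edgeR test without the block, and Gpx8 did not pass it with the block (adjusted p = 0.117). DESeq2 called both, with adjusted p-values of 0.000117 and 0.0437. Next to Gzmb lie Gzmc, described above, and Atp12a, which had 0 counts in every library. Gzmm lies between Cdc34 and Bsg, which had log2 fold changes of -0.13 and -0.04 (edgeR adjusted p = 0.613 and 0.859). Serpinb9 and Serpinb6b are neighbours of each other, and Serpinb9b on the far side of Serpinb9 had at most 0.118 CPM in any library. Cldnd2, next to Nkg7, stood higher in every NKG2D+ library than without NKG2D (log2 fold change 0.78, edgeR adjusted p = 0.127, DESeq2 adjusted p = 0.0334).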
